A study of Mus musculus with 2 samples.

Results

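The genes described here are 10 that mark the ureteric bud and the epithelia of the embryonic kidney. They are Ret, Gfra1, Krt8, Krt18, Krt19, Cdh1, Epcam, Calb1, Tfap2b and Elf5. They were read in 2 pools of sorted endothelial cells, where their own cell types were not the ones collected. Members were all probe sets that the platform annotation gives to exactly 1 of these genes, which made 21 of 34945 probe sets with 1 gene, and 10 of 18193 genes. No probe set of these genes was shared with another gene in the annotation (0 of 932 probe sets with several genes). The rule used names and no measured value, but the genes were chosen with earlier results of these data known. Both samples were of 1 group, from CD-1 mouse kidneys at embryonic day E15.5 (Theiler stage 23) that carried the transgene Tg(TIE2GFP)287Sato, which is GFP driven by the promoter of Tie2, a receptor of endothelium that blood cell lineages also use. Each sample was a pool of about 5 to 10 kidneys, trypsinised whole and sorted by fluorescence, and its RNA went through 2 rounds of amplification before 1 array was hybridised. The labels do not say whether the pools came from separate litters, so some or all of their spread may be technical. The titles read FLK1 (Kdr), which is not the reporter, and the source is labelled as renal artery and renal vein endothelium, which the dissociation of whole kidneys would not select.

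The ureteric bud is an epithelial tube that grows from the nephric duct, branches into the mesenchyme around it and becomes the collecting duct system and the ureter. Its tips carry the receptor tyrosine kinase Ret, which signals together with the co-receptor Gfra1 when the mesenchyme secretes the ligand Gdnf. This loop drives branching, and loss of any of these genes is known to disturb it. Krt8, Krt18 and Krt19 encode keratins of simple epithelia, where a type II keratin such as Krt8 pairs with a type I keratin such as Krt18 or Krt19 to build filaments. Cdh1 (E-cadherin) joins epithelial cells at adherens junctions, as VE-cadherin (Cdh5) does for endothelium, and Epcam encodes a surface glycoprotein found on most simple epithelia. Calb1 encodes the calcium buffer calbindin, an old marker of the ureteric bud and of the distal tubule. Tfap2b is an AP-2 transcription factor of the distal nephron and collecting system, and Elf5 is an epithelial ETS factor best known from mammary gland and trophoblast.

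Promoter sequences are shown for the keratin partners Krt8 and Krt18, for Epcam, and for 1 start of Elf5, because these 4 epithelial genes ranged from above background on both arrays (Krt8) through 1 array (Krt18 and Epcam) to neither (Elf5). RefSeq sequence (GRCm38.p6) was found for 6 of the 10 genes, with 7 starts. Each line gives the 250 bases before the start, on the strand of the gene, and capitals mark the E-box CACCTG or its reverse complement CAGGTG, the letters that the Snail and Zeb repressors of epithelial genes are known to bind. The windows are chr15:102004343-102004592 on the minus strand for Krt8, chr15:102027966-102028215 on the plus strand for Krt18, chr17:87635729-87635978 on the plus strand for Epcam and chr2:103411848-103412097 on the plus strand for Elf5.
Krt8: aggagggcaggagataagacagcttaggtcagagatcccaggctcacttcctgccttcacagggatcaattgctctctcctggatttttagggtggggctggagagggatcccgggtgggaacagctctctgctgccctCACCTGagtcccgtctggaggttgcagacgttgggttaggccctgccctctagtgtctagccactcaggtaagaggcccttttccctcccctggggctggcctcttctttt
Krt18: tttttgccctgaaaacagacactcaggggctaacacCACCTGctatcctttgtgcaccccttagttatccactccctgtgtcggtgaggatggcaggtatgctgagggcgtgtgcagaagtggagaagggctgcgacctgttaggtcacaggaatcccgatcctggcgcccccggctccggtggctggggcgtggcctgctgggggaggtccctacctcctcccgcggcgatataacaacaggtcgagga
Epcam: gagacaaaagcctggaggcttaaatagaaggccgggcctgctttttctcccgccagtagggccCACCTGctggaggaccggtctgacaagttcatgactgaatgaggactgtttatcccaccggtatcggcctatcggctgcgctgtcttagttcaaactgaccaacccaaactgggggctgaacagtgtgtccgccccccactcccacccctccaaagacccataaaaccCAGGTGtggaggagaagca
Elf5: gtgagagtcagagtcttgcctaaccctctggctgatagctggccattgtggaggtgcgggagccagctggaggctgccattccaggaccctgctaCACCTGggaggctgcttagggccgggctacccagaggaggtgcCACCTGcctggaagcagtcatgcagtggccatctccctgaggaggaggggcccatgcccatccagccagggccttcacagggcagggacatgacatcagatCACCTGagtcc
The E-box began 111 bases before the start in Krt8, 214 bases before it in Krt18, 187 and 19 in Epcam, and 155, 112 and 11 in Elf5. Among the 6 genes, 4 held the motif at a start, and Gfra1, Tfap2b and the other Elf5 start did not hold these letters in the window. Over all 32851 promoter windows of this length, 17.2% held it. That share is by window, and by window the 6 genes gave 4 of 7. The 4 windows printed are the ones with the motif, so the display does not show the windows that lack it. Of the genes with the motif, Krt8 was above background on both arrays, Krt18 and Epcam on 1 and Elf5 on neither. Krt8 and Krt18 lie close together on chromosome 15 on opposite strands, with 2 annotated long noncoding RNA genes between them.

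Values below are deposited intensities in arbitrary units, for replicate 1 and then replicate 2. The background limit was the 95th percentile of 84 probe sets for smell, pheromone and taste receptors (76 genes), 201.3 in replicate 1 and 204.0 in replicate 2. A gene was called above background when its highest probe set passed the limit on both arrays. The median intensity over all probe sets was 233.4 and 246.7. All 16 pan-endothelial genes were above background, with Tek, the Tie2 gene, at 15908 and 21499 and Kdr, a VEGF receptor, at 8939 and 12139. Control probe sets at the 3' end read 3.155 and 3.667 times those at the 5' end for Actb, and 19.48 and 22.31 times for Gapdh. A probe set far from the 3' end of a transcript could therefore read low, and probe positions were not used here. With 1 group there was no contrast and no test.

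Of the 10 genes, 2 were above background on both arrays, Krt8 and Cdh1. This share of 2 in 10 stood beside 61.1% of all genes. Krt18, Ret, Epcam and Calb1 passed the limit on 1 array only, 4 of 10 beside 6.45% of all genes. Gfra1, Krt19, Tfap2b and Elf5 passed it on neither, 4 of 10 beside 32.5%. Of 18 genes listed as not expected in kidney, 5 also passed the limit on 1 array only, so such passes are not particular to these genes. On each array taken alone 4 of the 10 passed, against 64.1% of all genes in replicate 1 and 64.5% in replicate 2. The 4 were Krt8, Cdh1, Krt18 and Ret in replicate 1, and Krt8, Cdh1, Epcam and Calb1 in replicate 2. Of the 21 probe sets 3 were above the limit on both arrays, 6 on 1 array and 12 on neither, beside 55.0% of probe sets with 1 gene above it on both. No probe set exceeded 2.12 times the limit on either array. Whether values this near the limit are RNA of epithelial cells was not tested. If they are, a small number of epithelial cells and a low RNA level per cell cannot be told apart in such a bulk sample.

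**Figure D1:**
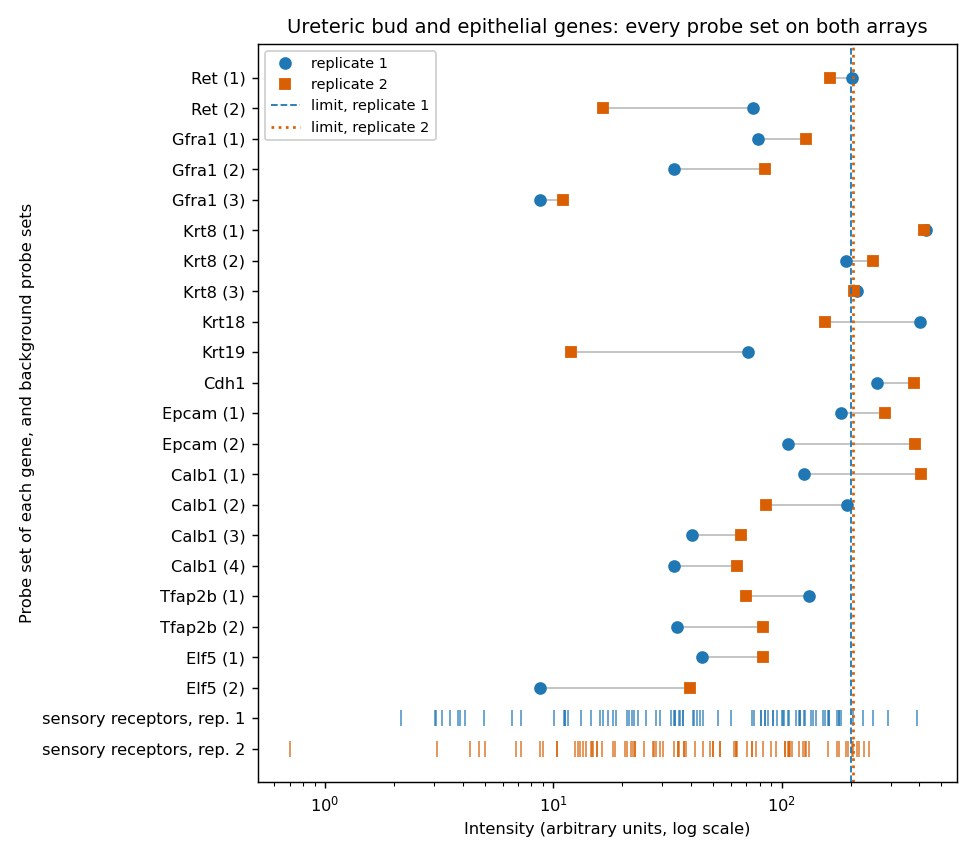
Intensity of each of the 21 probe sets (rows, numbered within a gene) in replicate 1 (circles) and replicate 2 (squares), in arbitrary units on a log axis, with the 84 sensory receptor probe sets as ticks below and the 2 background limits as vertical lines. Of Krt8 a pair of probe sets, and of Cdh1 its 1 probe set, have both symbols to the right of the limits.

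The Ret receptor and its co-receptor Gfra1 were at or below background. The higher probe set of Ret gave 203.2 and 163.0, which was 1.01 times the limit in replicate 1 and 0.799 times the limit in replicate 2. Of the 84 sensory receptor probe sets, 5 were as high or higher in replicate 1 and 10 in replicate 2. The other Ret probe set gave 75.0 and 16.5, inside the range of the receptor probe sets on both arrays. The 3 probe sets of Gfra1 gave 78.7 and 127.7, 33.6 and 84.5, and 8.73 and 11.0. All 6 of these values were under the limit, and 36 and 12 sensory receptor probe sets were as high as the highest of them. With a fixed limit of 100, Ret passed on both arrays and Gfra1 on replicate 2 alone.

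Among the keratins, Krt8 was the member furthest from background. Its highest probe set gave 426.3 and 418.0, 2.12 and 2.05 times the limit, and none of the 84 receptor probe sets was as high on either array. Its other probe sets gave 190.9 and 250.7 and 212.9 and 207.8. The former was over the limit in replicate 2 alone, and the latter stood at 1.06 and 1.02 times the limit. Both carry the array suffix for probe sets of which some probes may match other transcripts, and keratin genes have related copies, so the values of this pair are uncertain. Krt18, the partner of Krt8, gave 402.2 and 154.3 in its 1 probe set, so the pools lay on opposite sides of the limit. Krt19 gave 71.3 and 11.9, below the limit on both arrays. Thus of the 3 simple-epithelium keratins, 1 was above background on both arrays, 1 in replicate 1 only and 1 on neither.

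Of the junction and surface genes, Cdh1 was above background on both arrays and Epcam in replicate 2 only. Cdh1 gave 261.9 and 379.1 in its 1 probe set, 1.30 and 1.86 times the limit, with 2 of 84 receptor probe sets as high in replicate 1 and none in replicate 2. Both Epcam probe sets passed in replicate 2 and missed the limit in replicate 1, at 180.8 and 282.1 and at 106.1 and 381.2. The 2 Epcam probe sets therefore gave the same calls on each array. Their values differed 1.56-fold between the arrays in the first and 3.59-fold in the second. The first carries the same suffix as the Krt8 pair, so its values are uncertain.

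Calb1 rested on 1 of its 4 probe sets. The highest gave 124.6 and 407.9, under the limit in replicate 1 and 2.00 times the limit in replicate 2. The others gave 192.8 and 85.6, 40.3 and 66.1, and 33.8 and 63.6, all under it on both arrays. The first of these ran the opposite way to the highest, with the larger value in replicate 1.

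Neither transcription factor was detectable above the limit. The 2 probe sets of Tfap2b gave 131.1 and 69.9, and 34.7 and 82.5. Those of Elf5 gave 44.9 and 82.5, and 8.71 and 39.5. Between 17 and 73 of the 84 receptor probe sets were as high as these in the same array. Of the 7 members with several probe sets, 3 (Ret, Krt8 and Calb1) had probe sets that passed on different numbers of arrays, beside 23 of 47 genes with several probe sets in the ureteric bud and epithelial lists described below.

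The pools were then set against each other as log2 intensity of replicate 1 minus replicate 2, centred on the median of probe sets above background, an offset of -0.01. Of the 10 genes 5 were higher in each pool, beside 49.0% of all genes higher in replicate 2. Krt19 (2.60), Krt18 (1.40), Tfap2b (0.92), Ret (0.33) and Krt8 (0.04) were higher in replicate 1. Calb1 (-1.70), Elf5 (-0.86), Gfra1 (-0.68), Epcam (-0.63) and Cdh1 (-0.52) were higher in replicate 2. The 2 genes above background on both arrays, Krt8 and Cdh1, had a median of -0.24, beside a median of 0.02 and an SD of 0.51 over 11114 genes above background. Of these 2, Cdh1 was higher in replicate 2, beside 47.9% of all genes above background. Cdh1 lay just over 1 such SD from 0 and Krt8 well within it. A difference of over 2-fold was seen in 3 of the 10, Krt19, Calb1 and Krt18, none of which was above background on both arrays. Such a difference was seen in 17.7% of all genes, in 37.9% of genes not above background on both arrays and in 4.78% of those above it. The SD of the difference was 1.36 among genes above the limit on neither array. With 1 array a pool, no difference has a replicate check.

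**Figure D2:**
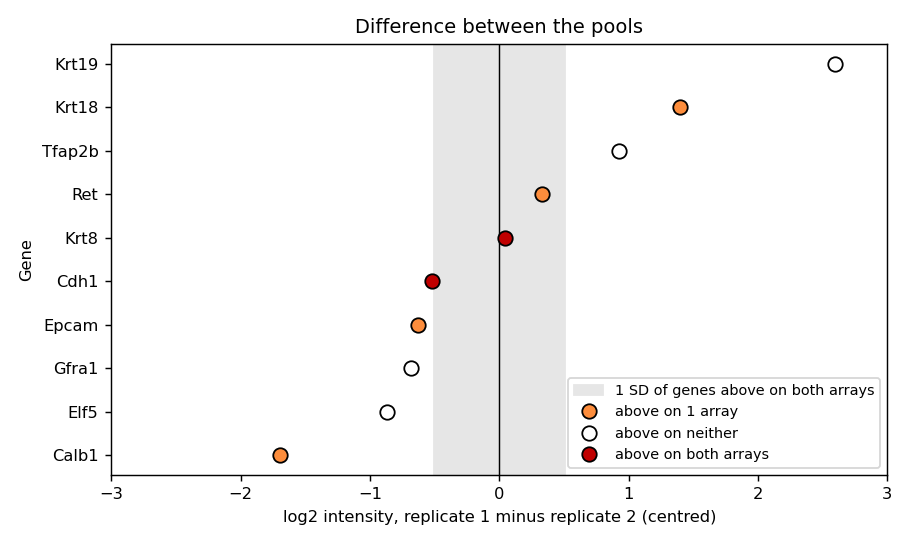
Centred log2 intensity of replicate 1 minus replicate 2 for each of the 10 genes (highest probe set), filled by the number of arrays above the background limit, with 1 SD of the difference over genes above background shaded. The points run from -1.70 for Calb1 to 2.60 for Krt19, and Krt8 and Ret lie inside the shaded band.

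A wider list of the Ret pathway held ligands, co-receptors, adaptors, targets and feedback inhibitors, of which 42 genes were measured. Of these 31 were above background (73.8%, beside 61.1% of all genes), 4 on 1 array and 7 on neither. Most of them serve many receptors and are not particular to the ureteric bud. Among the 4 ligands, Gdnf gave 214.8 and 511.9 and was above the limit on both arrays, by 1.07 times in replicate 1 and 2.51 times in replicate 2. Neurturin (Nrtn) passed in replicate 2 only (195.0 and 289.1), and Artn (21.7 and 57.6) and Pspn (134.5 and 126.1) on neither array.

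Of the other 3 co-receptors of the family, 2 were above background and Gfra4, like Gfra1, was not. Gfra2, the neurturin co-receptor, gave 594.8 and 506.8, and Gfra3, the artemin co-receptor, gave 452.1 and 321.0. Both were above the limit on both arrays. Gfra4 gave 137.0 and 11.7, under it on both. Neither of those above it is the co-receptor that serves Ret in the ureteric bud.

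Of 13 adaptors and enzymes that act downstream of Ret and other tyrosine kinases, 11 were above background (84.6%, beside 61.1% of all genes). As in the other lists, groups by role were formed after the values were seen. The 11 included the adaptor Grb10 (40692 and 48234), phospholipase Plcg1 (16313 and 17410), the phosphatase Ptpn11 (15010 and 14898), and the docking proteins Gab1 (9309 and 9548) and Gab2 (5689 and 11122). Grb7, an adaptor known to bind Ret, passed in replicate 2 only (175.4 and 292.2). All 7 feedback inhibitors of the ERK pathway were above background, again beside 61.1% of all genes. Among them were the phosphatase Dusp6 (39892 and 47867), Spred1 (6471 and 6060) and Spred2 (8042 and 7121). Of the factors known as Ret targets in bud tips, Etv4 gave 543.9 and 236.5 and Etv5 gave 1739 and 2672. Etv4 passed on both arrays in 1 of 2 probe sets and Plcg1 in 1 of 3, with another probe set of each on neither array. Sox9 (205.0 and 164.5) passed in replicate 1 only, as Ret itself did, at 1.02 times the limit there and 0.806 times in replicate 2. Over the 31 genes above background the median difference between the pools was -0.02, beside 0.02 for all genes, with 15 higher in replicate 1 and 16 in replicate 2.

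A list of ureteric bud and collecting duct genes, which holds 5 of the 10 genes, had 10 of 40 measured genes above background (25.0%, beside 61.1%), 10 on 1 array and 20 on neither. Among those above it were Wnt11, the Wnt ligand of bud tips (373.9 and 563.7), and Wnt7b, the Wnt ligand of the duct stalk (395.0 and 374.3). The factor Gata3 gave 378.2 and 416.2, the matrix protein nephronectin (Npnt) gave 1023 and 1106, the uroplakin Upk2 gave 507.8 and 468.8 and the factor Sim1 gave 267.7 and 433.2. Endothelium and other renal cells use several of these genes as well. Wnt7b and Sim1 passed on both arrays in 1 of 2 probe sets each, and Npnt in 2 of 5. Another probe set of each passed on neither array, so these calls are uncertain.

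Genes above the limit on 1 array in this list were mostly so in replicate 2 (7 of 10). Besides Calb1 these were Wnt9b (188.3 and 259.0), the factor Emx2 (94.2 and 219.3), the water channel Aqp2 (107.9 and 318.2), the sodium channel subunits Scnn1a (61.8 and 220.4) and Scnn1b (187.0 and 345.8), and Mal (129.3 and 266.8). In replicate 1 they were Ret, Sox9 and the water channel Aqp3 (205.8 and 181.7). None of the 6 listed genes for water and sodium handling in the collecting duct was above background on both arrays, beside 61.1% of all genes. Over the 10 genes above it the median difference was -0.14.

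A list of epithelial adhesion and identity genes, which holds the other 5, had 13 of 55 above background (23.6%, beside 61.1%), 13 on 1 array and 29 on neither. The leading genes were Prom1, which endothelial and blood progenitors are also known to use (16681 and 14688), the protease inhibitor Spint2 (916.2 and 1312), plakoglobin (Jup), which VE-cadherin junctions share (1356 and 816.2), and the laminin chain Lama3 (901.2 and 627.1). The polarity protein Crb3 (479.3 and 446.1), the tetraspanin Tspan8 (315.1 and 378.2) and the surface protein Cdcp1 (461.7 and 208.6) followed, with Krt8. Lama3 passed on both arrays in 1 of 2 probe sets and Crb3 in 1 of 3, with another probe set of each on neither array. Over the 13 genes the median difference was 0.04, beside 0.02 for all genes.

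Tight junction and desmosome genes of epithelium were mostly under the limit. Of 13 tight junction and polarity genes, 2 were above background (15.4%, beside 61.1% of all genes), and of 5 claudins none was. Cldn6 (92.7 and 221.1) and Cldn7, the claudin that binds Epcam (115.3 and 264.4), passed in replicate 2 only, as cingulin (Cgn) did (134.5 and 218.9). Of 8 desmosome and cornified envelope genes, 1 was above background (12.5%, beside 61.1%). Desmoplakin (Dsp, 120.4 and 207.5), Dsg2 (169.0 and 382.7) and Pkp2 (179.7 and 331.8) passed in replicate 2 only. Dsg2 is uncertain, since of its 6 probe sets 1 other than the one read here passed on both arrays. The kidney cadherin Cdh16 (169.5 and 320.3), Spint1 (167.8 and 215.0), Bspry (170.8 and 222.7) and Tmprss2 (158.1 and 336.3) did the same, and the ETS factor Ehf (215.4 and 119.3) passed in replicate 1 only. Of the 13 genes on 1 array, 11 were in replicate 2 by the probe set read for each gene, Dsg2 among them.

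Both lists together held 95 genes, of which 23 were above the limit on 1 array only. For 18 of these 23, Dsg2 included, that array was replicate 2, and without the 10 genes the count was 16 of 19. Over all genes above the limit on 1 array only, that array was replicate 2 in 53.1%. The keratin list went the other way, as described below, and of the 10 genes themselves 2 passed only in replicate 1 and 2 only in replicate 2. Renal stroma genes were also higher in replicate 2, in all 10 genes above background of the 12 listed, with a summed intensity over the 12 of 27733 and 91757, and their part in these counts was not tested.

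Of 44 keratin genes, 6 were above background (13.6%, beside 61.1%), 3 on 1 array and 35 on neither. Besides Krt8 they were Krt10 (355.0 and 361.0), Krt32 (245.4 and 375.1), Krt42 (1502 and 1169), Krt80 (354.9 and 350.0) and Krt81 (582.7 and 637.0). Krt42 is uncertain, since the probe set read carries the suffix described for the Krt8 pair and its other probe set passed on neither array. Krt10 is a keratin of stratified epidermis and Krt32 and Krt81 are keratins of hair, so values over the limit were not limited to keratins of simple epithelium. Krt10 was also 1 of 2 genes above background, with the casein Csn3 (619.9 and 606.7), among 18 listed as foreign to kidney (11.1%). A further 5 of the 18 passed on 1 array only. The other of the 2 probe sets of Csn3 passed on neither array. Krt18, Krt23 (222.3 and 117.0) and Krt77 (223.3 and 163.4) passed in replicate 1 only. Krt7, a further keratin of the collecting duct and urothelium, gave 82.96 and 71.2.

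Relatives of the transcription factors and junction genes were read gene by gene. None of the 5 AP-2 genes was above the limit on either array, beside 32.5% of all genes on neither. Besides Tfap2b these were Tfap2a (108.3 and 183.7), Tfap2c (140.0 and 66.2), Tfap2d (105.2 and 48.0) and Tfap2e (5.43 and 4.51). In the Elf group of ETS factors, the broadly used Elf1 (3447 and 4770) and Elf2 (4273 and 7453) and the epithelial Elf3 (327.7 and 310.0) were above background, and Elf4 passed in replicate 1 only (262.5 and 184.4). Among cadherins, Cdh5 gave 22435 and 20733 and Cdh2 (N-cadherin) 1131 and 1518, both above background with Cdh1. Cdh4 passed in replicate 1 only (221.2 and 101.6) and Cdh3 (P-cadherin) on neither (47.0 and 133.2). The calcium buffers related to calbindin, Calb2 (49.4 and 27.4) and S100g (3.30 and 7.07), were under the limit.

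**Figure D3:**
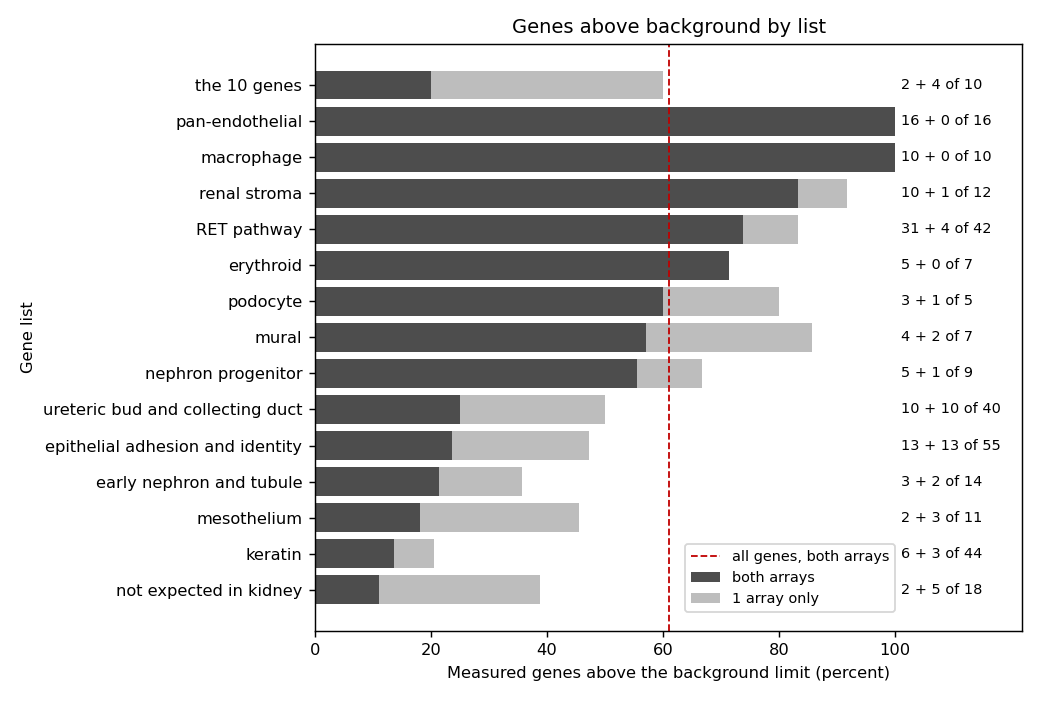
Percent of measured genes above the background limit on both arrays (dark) and on 1 array only (light) in the 10 genes and in each list, with counts at the right as both plus 1 array of all measured, and the share of all genes above it on both arrays (61.1%) as a dashed line. The 10 genes, the ureteric bud, epithelial, early nephron, mesothelium and keratin lists and the genes not expected in kidney all lie well left of that line with 11.1% to 25.0% above on both arrays.

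Markers of other cells that use some of these genes were read beside them. Of 8 mesothelial genes apart from the 3 keratins, 1 was above background, Gpm6a (396.8 and 454.0). Wt1 (144.0 and 346.8), which podocytes and nephron progenitors also use, and Nkain4 (95.9 and 286.1) passed in replicate 2 only, and the other 5, with Msln (13.4 and 18.9) and Upk3b (39.7 and 15.2) among them, on neither array. Early nephron and tubule genes reached 3 of 14 (21.4%, beside 61.1% of all genes). These were Jag1 (4577 and 5937), Ccnd1 (29182 and 26033) and Cdh6 (480.4 and 812.5, in 1 of 2 probe sets). Of the rest, 2 passed in replicate 1 only and 9 on neither array. Nephron progenitor genes reached 5 of 9 (55.6%) and podocyte genes 3 of 5 (60.0%), both shares near that of all genes. The 5 were Six2 (269.5 and 229.5, only 1.34 and 1.12 times the limit), Sall1, Meox1, Gdnf and Itga8. Eya1 (124.0 and 318.0) passed in replicate 2 only, and Cited1 (11.7 and 13.6), Osr1 (30.6 and 121.3) and Crym (147 and 43.8) passed on neither array. The podocyte genes above background were Podxl (29868 and 30060), which endothelium also uses, Synpo (1012 and 2346) and Ptpro (1089 and 1903), while Nphs1 (89.1 and 100.2) was under the limit on both arrays. Synpo and Ptpro passed on both arrays in 1 of 2 probe sets each, the other passing on neither. Macrophage genes reached 10 of 10, with Csf1r at 34030 and 36806, and renal stroma genes 10 of 12 (83.3%), with Pdgfra at 719.8 and 4811. No test of a difference between these lists and the 10 genes was made.

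**Figure D4:**
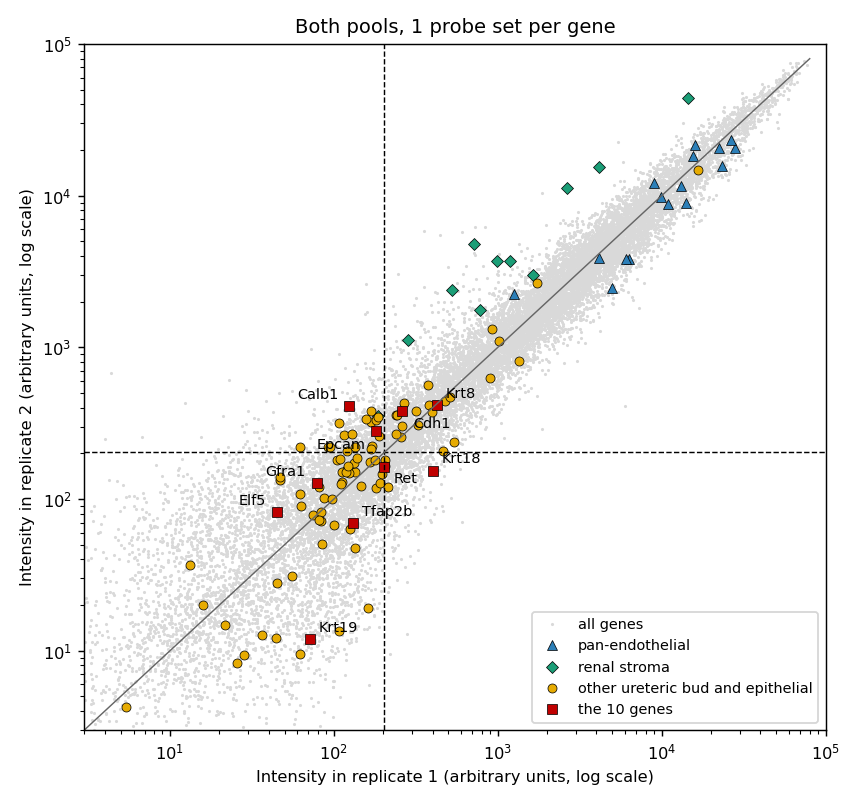
Intensity of each gene (highest probe set) on the x axis for replicate 1 and on the y axis for replicate 2, in arbitrary units on log axes that start at 3 (lower values not drawn), with the 10 genes, other ureteric bud and epithelial genes, renal stroma and pan-endothelial genes marked, dashed background limits and a diagonal of equal values. None of the 10 genes exceeds 2.12 times the limit on either axis, and only Krt8 and Cdh1 lie in the upper right quadrant. The pan-endothelial genes lie far above the limits, the lowest being Pecam1 at 1257 and 2247.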

How the data were processed

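RNA of 2 pools of sorted cells was measured on an Affymetrix mouse array of the 3' expression type. The authors deposited 1 intensity per probe set on a linear scale, per the labels processed with GCOS (version not given in the sources used here). Trimmed means (2% left out at each end) of 1500 on both arrays show a shared scaling before deposit. No detection calls were used here, and since the published methods are for a different kind of array, they were not applied. Of 45101 probe sets, 34945 had 1 gene, 932 several, 9160 none and 64 were controls. Gene IDs of 34741 were found in the RefSeq table of GRCm38.p6, and 0 symbols changed. Each gene was read from the probe set whose mean log2 intensity was highest. Because probe sequence affects intensity, values are read against the limit or between the 2 arrays, and an order between genes is only a guide. Of the 84 receptor probe sets that set it, 1 passed on both arrays, and of 27 Bacillus control probe sets none did (0 of 27). The number of arrays limits the precision. Named genes were all 10 members with every probe set, up to 8 list genes of highest ratio to the limit, those above it on 1 array, all keratins above it, all relatives, Gdnf and 8 markers. Artn, Pspn, Krt7, Csn3, Pecam1, Gpm6a, Wt1, Nkain4, Podxl, Synpo and Ptpro were named after their values were seen. So were Sall1, Meox1, Itga8, Eya1, Cited1, Osr1, Crym, Jag1, Ccnd1 and Cdh6. Groups by role within lists were formed after the values were seen. Members and lists were chosen with earlier results of these data known. Python 3.11.15, numpy 2.4.6, pandas 2.3.3 and matplotlib 3.10.9 were used.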

Additional observations from a re-analysis of the deposited data

How the results depend on the processing

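No paired analysis was possible because both samples belong to 1 group. Counts of genes above background depended on the limit. With a fixed limit of 100, 6 of the 10 genes, 9 of their 21 probe sets, 25 of 40 ureteric bud genes, 35 of 55 epithelial genes and 16 of 44 keratins were above it, when 72.7% of all genes were. With the limit from Bacillus controls the counts were 5, 7, 20, 28 and 13, with 70.6% of all genes. At 2 times the limit they were 1 (Krt8), 1, 3, 6 and 3, with 52.4% of all genes. On 1 array alone (the other left out) the 10 genes gave 4 on either, and their probe sets 5 to 7, ureteric bud genes 13 to 17, epithelial genes 15 to 24, keratins 6 to 9 and Ret pathway genes 33 on either. With the median of each gene's probe sets, ureteric bud genes fell to 6 of 40, with 55.5% of all genes, and Ret and Calb1 passed on 0 arrays. Every Ret pathway count (24 to 36) stayed within 1.5 times its value of 31. The median log2 difference of Krt8 and Cdh1 (-0.24) ran from -0.37, with the median of probe sets and over 1.5 times its size, to -0.18, each within 1 SD (0.51) of the value reported. A value within a few percent of the limit, such as that of Ret in replicate 1 (1.01 times the limit), gives no firm call on its array. In replicate 2 Ret was 0.799 times the limit.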
